A study of Mus musculus with 6 samples.

Results

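Amino acid transporters were examined in RNA-seq libraries of NOR-10, a mouse skeletal muscle fibroblast line, with and without D-galactose (D-gal), a sugar used to induce features of ageing in cultured cells. The set was 33 solute carrier genes chosen by symbol from 9 groups of carriers (SLC1, SLC3, the cationic carriers and the light chains of SLC7, SLC36, SLC38, SLC43, SLC6 and SLC16), out of 34745 genes in the expression table. Of the 33, 26 had enough reads to be tested, among 13407 genes tested in all. Control cells received PBS and treated cells received D-gal, at 20 mg/mL for 3 days by the study's methods, with 3 libraries in each group, named here control 1 to 3 and D-gal 1 to 3. All 6 libraries were from the same line, so that no other fibroblast line, muscle fibre or animal is represented. The sources used here do not say whether the 3 libraries of a group came from separate cultures, so p-values measure the spread between these libraries, which may be technical.

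Amino acids cross cell membranes on carriers that differ in substrate and in what drives them. SLC1 proteins use sodium and related gradients to concentrate glutamate and aspartate or exchange small neutral amino acids, SLC7 light chains exchange amino acids while bound to a glycoprotein heavy chain of the SLC3 family, and SLC7 proteins of the CAT group carry arginine and lysine without a partner. SLC38 proteins are sodium-coupled neutral amino acid carriers, several of them on lysosomes, SLC36 proteins carry small neutral amino acids, some of them together with protons, and SLC43 proteins are facilitators. In fibroblasts these carriers supply the glycine, proline precursors, leucine and cystine used for matrix proteins, growth signalling and glutathione.

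Several carriers are induced through ATF4, a transcription factor made when amino acids run short, which binds a composite element in promoters. To show what this element looks like here, promoter stretches were taken from RefSeq (GRCm38.p6) for the member with the largest rise (Slc1a3), for a partner shared by the light chains (Slc3a2) and for both members called in this comparison that held the element (Slc7a11 and Slc1a4). Each stretch runs 5′ to 3′ along the gene, from 110 bases before to 20 bases after a RefSeq start, all 4 on the minus strand, at chr3:50443594-50443723 for Slc7a11, chr11:20332694-20332823 for Slc1a4, chr15:8710788-8710917 for Slc1a3 and chr19:8713878-8714007 for Slc3a2. Capitals mark each match to TGATGNAA on either strand.
Slc7a11: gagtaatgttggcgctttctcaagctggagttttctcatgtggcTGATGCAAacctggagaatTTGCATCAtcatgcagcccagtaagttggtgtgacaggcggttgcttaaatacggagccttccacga
Slc1a4: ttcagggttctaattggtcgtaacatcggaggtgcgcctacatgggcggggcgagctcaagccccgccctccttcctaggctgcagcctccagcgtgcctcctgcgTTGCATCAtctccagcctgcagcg
Slc1a3: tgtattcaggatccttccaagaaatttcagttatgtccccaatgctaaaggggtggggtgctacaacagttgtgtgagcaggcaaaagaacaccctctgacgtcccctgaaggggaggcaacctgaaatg
Slc3a2: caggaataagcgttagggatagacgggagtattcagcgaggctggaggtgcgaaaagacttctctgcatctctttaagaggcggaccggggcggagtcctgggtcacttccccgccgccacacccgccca

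Slc7a11 held 2 copies, the first bases of which lie at -66 and -47 from the start, and Slc1a4 held 1 copy at -4. The Slc1a3 and Slc3a2 stretches held no match, which says only that these letters are not in this window. The Slc3a2 start shown lies inside the annotated gene (chr19:8706882-8723369), and which start these cells use was not tested. Over the RefSeq windows of 300 bases (250 before to 50 after a start), TGATGNAA in either orientation was found in 4 of the 36 windows of the 24 members that had any (11.1%), those of Slc7a11, Slc1a4 and Slc7a7, and in 1304 of 32851 windows of all genes (3.97%). The antioxidant element TGACNNNGC, which NRF2 binds, was found in 7 of the 36 member windows (19.4%), those of Slc43a1, Slc6a9, Slc7a1, Slc7a6 and Slc36a1, and in 4071 of all windows (12.4%). The CAT2 and LAT1 genes Slc7a2 and Slc7a5 and the ASCT2 gene Slc1a5 were among 9 members with no window in the table, with Slc7a3, Slc7a4, Slc6a15, Slc38a1, Slc38a3 and Slc43a3. The 2 members with the element that were called moved in opposite directions, Slc7a11 down and Slc1a4 up, and Slc7a7 was not called. A match is a description of the letters and not of binding.

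Libraries held 13759108 to 20830349 counts, the D-gal libraries fewer than the control libraries, and mitochondrial transcripts took 4.26% to 4.44% of counts in control and 4.87% to 4.98% in D-gal. Of 10 fibroblast markers, 8 had at least 100 raw counts in every library. All 10 together summed to 127850 to 131117 normalized counts in control against 83919.4 to 89364.5 in D-gal. Markers of skeletal muscle cells summed to 89.8 to 102 normalized counts in control and 61.7 to 67.5 in D-gal, with Pax7, Myf5 and Myod1 at 0 in all 6 libraries. Endothelial markers summed to 75.9 to 90.6 in control and 51.8 to 56.8 in D-gal, and epithelial markers summed to 118 to 142 in control and 29.5 to 43.8 in D-gal. Leukocyte markers (51.5 to 159 in control, 57.2 to 67.5 in D-gal) and adipocyte markers (16.2 to 27.9 and 20.2 to 33.7) overlapped between groups. The part of these shifts in the results was not tested. In bulk libraries, fewer cells of a type and less RNA per cell cannot be told apart.

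D-gal moved amino acid transporters in both directions and by modest amounts. Of the 26 members tested, 9 were called (edgeR quasi-likelihood test, Benjamini-Hochberg adjusted p under 0.05 over all genes tested), or 34.6%, where 34.8% of all genes tested were called. The 3 that rose were the glutamate carrier Slc1a3, the small neutral exchanger Slc1a4 and the proline and tryptophan carrier Slc36a4, while 16.9% of all genes tested rose. The 6 that fell were the glutamine exchanger Slc1a5, the heavy chain Slc3a2, the light chains Slc7a5 and Slc7a11, the SLC38 member Slc38a10 and the facilitator Slc43a2, while 17.8% of all genes tested fell. The members were therefore called about as often as genes at large. No member was both called and changed by 1 or more on the log2 scale, the threshold in the study's methods, which 4.21% of all genes tested passed, although 11 members had an unadjusted p under 0.05, and none was past that threshold with DESeq2 or limma either. The median log2 fold change was 0.022 over the 26 members and 0.0036 over all genes tested, and the median size of the change was 0.16 and 0.19.

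Groups did not overlap for 12 of the 26 members (46.2%), where 49.1% of all genes tested did not overlap. These 12 were the 9 called members with Slc7a6, Slc38a4 and Slc43a3. With 3 libraries against 3, an exact permutation test of a single gene cannot go below p = 0.1, so single-gene calls rest on the fit across all genes.

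**Figure D1:**
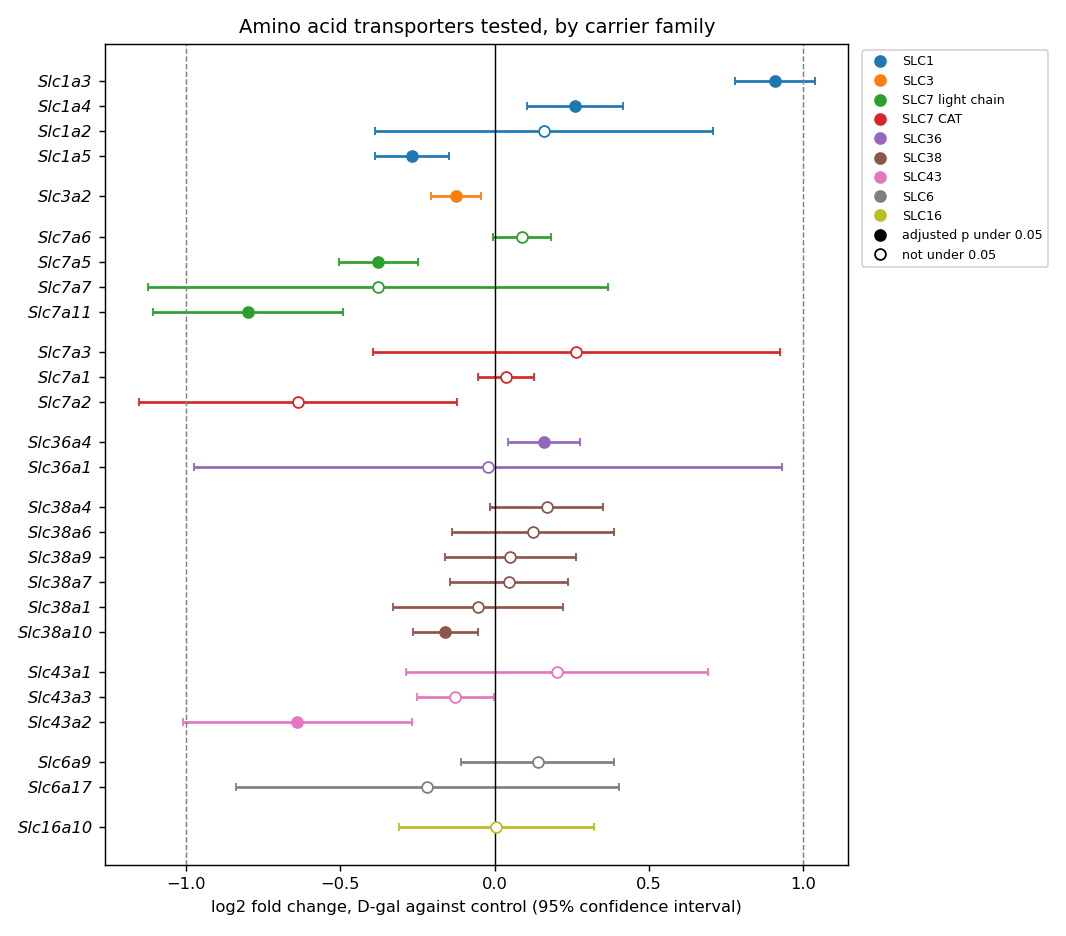
Log2 fold change of D-gal against control for the 26 members tested, grouped and coloured by carrier family, with 95% confidence intervals from the edgeR fit (3 libraries per group). Filled points are the 9 members with adjusted p under 0.05, open points the other 17, and dashed lines mark a log2 fold change of 1 in size, which no point reaches.

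The SLC1 family held the largest change. Slc1a3 encodes GLAST, a carrier that concentrates glutamate and aspartate in cells and is best known from glia. Its normalized counts were 1108, 1238 and 1231 in control 1 to 3 and 2135, 2312 and 2274 in D-gal 1 to 3. Every D-gal library was above every control library, with no overlap and a gap wider than the range of either group. Slc1a3 rose by a log2 fold change of 0.91 (SE 0.056, 95% confidence interval 0.78 to 1.04, edgeR adjusted p = 2.06e-05), a fold of 1.88. The other glutamate carriers of the set were scarce. Slc1a2, the main glutamate carrier of astrocytes, had 31.01 to 45.3 normalized counts in control and 34.8 to 54.2 in D-gal and was not called (log2 fold change 0.16, adjusted p = 0.643), and Slc1a1 had at most 2 counts in any library. Slc1a6, a glutamate carrier outside the set that is given with the related genes, also rose (log2 fold change 1.23), and its level per length was 1.77 in control and 4.15 in D-gal, against 8.32 and 15.6 for Slc1a3.

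The neutral exchangers of the same family moved apart. Slc1a4, ASCT1, exchanges alanine, serine, cysteine and threonine, and Slc1a5, ASCT2, is a main entry route for glutamine in proliferating cells. Normalized counts of Slc1a4 were 531, 607 and 598 in control and 714, 687 and 681 in D-gal. All 3 D-gal libraries were higher, control 1 being the lowest of the 6, and Slc1a4 rose by a log2 fold change of 0.26 (SE 0.067, edgeR adjusted p = 0.0187). The call was lost without control 1 (adjusted p = 0.0514) or without D-gal 1 (0.0606), with the direction kept. Normalized counts of Slc1a5 were 1366, 1414 and 1261 in control and 1112, 1103 and 1142 in D-gal. The D-gal libraries were all lower and closer together than the control libraries, and Slc1a5 fell by 0.27 on the log2 scale (SE 0.053, edgeR adjusted p = 0.00573), a call kept under all 15 alternatives with adjusted p from 0.00262 to 0.0238. The ratio of Slc1a4 to Slc1a5, each per length, was 0.458 ± 0.045 (SD, n = 3) in control and 0.659 ± 0.024 in D-gal. It was lowest in control 1 at 0.413 and highest in D-gal 1 at 0.682. Because both genes were already apart in opposite directions, the ratio could not overlap between groups and is not a further result.

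**Figure D2:**
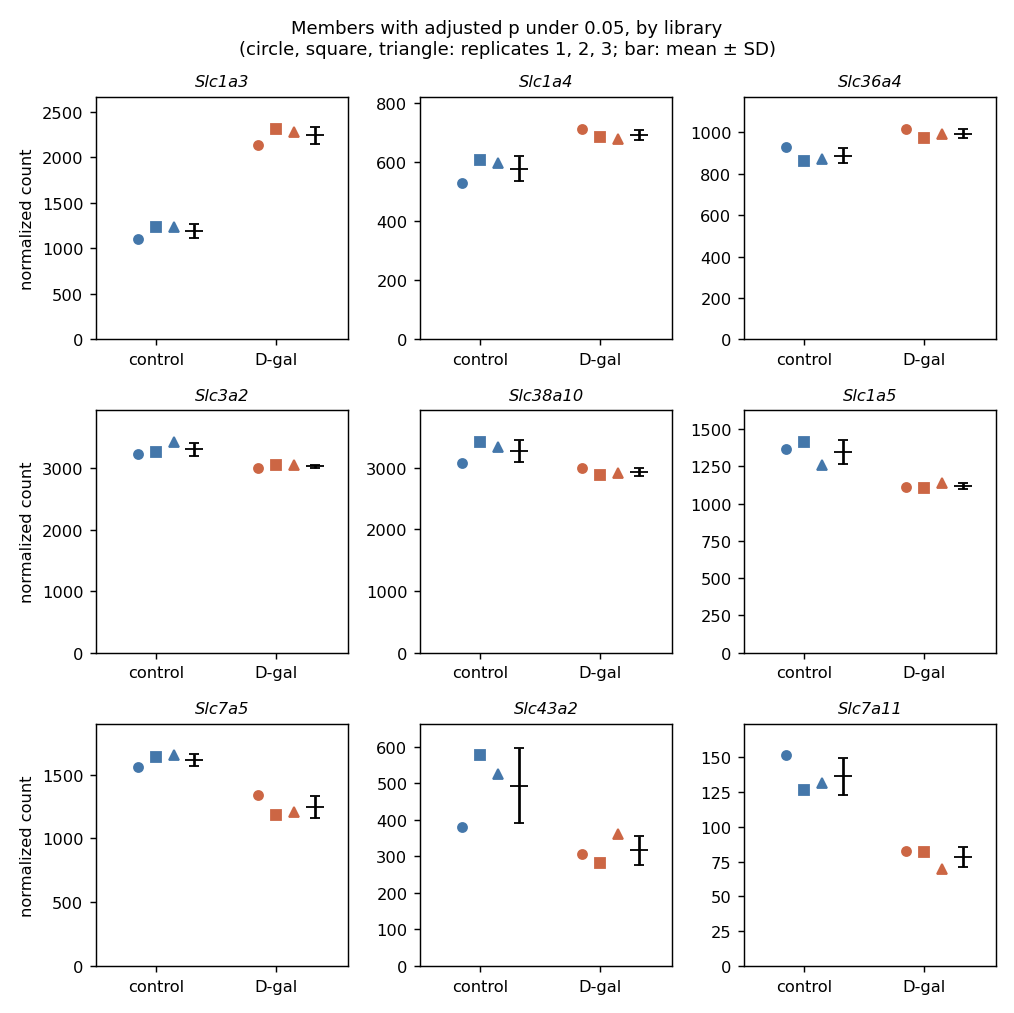
Normalized counts (linear axis from 0) of the 9 members with adjusted p under 0.05, in each of the 3 control (blue) and 3 D-gal (orange) libraries, with mean ± SD. Slc1a3 shows the widest gap between groups and Slc38a10 the narrowest for its level, and the groups do not overlap in any panel.

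Among heavy and light chains, the change was downward where a member was called. Slc3a2 encodes the CD98 heavy chain, which brings most of these light chains to the cell surface. Its normalized counts were 3233, 3259 and 3425 in control and 3001, 3047 and 3050 in D-gal. The D-gal libraries lay just below the lowest control library, and Slc3a2 fell by 0.12 on the log2 scale (SE 0.035, edgeR adjusted p = 0.0277), a decrease of 8.26%. The call was lost with DESeq2 (adjusted p = 0.0809), with limma on FPKM values (0.0827 with a pseudocount of 1) and on leaving out any library other than control 1 (0.0535 to 0.0883). The other heavy chain, Slc3a1, a partner in kidney and gut, had 6 to 14 counts in each library and was not tested.

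Slc7a5, LAT1, exchanges leucine and other large neutral amino acids for intracellular glutamine. Its normalized counts were 1564, 1638 and 1653 in control and 1343, 1187 and 1209 in D-gal. D-gal 1 was the highest of the treated libraries and was still below every control library, and Slc7a5 fell by 0.38 on the log2 scale (SE 0.056, edgeR adjusted p = 0.00146), or by 23.0%. Slc7a11, xCT, brings in cystine in exchange for glutamate and limits glutathione synthesis in many cells. Its normalized counts were 152, 126 and 131 in control and 83.0, 81.9 and 69.9 in D-gal. The groups were well apart for so scarce a transcript, and Slc7a11 fell by 0.80 on the log2 scale (SE 0.134, 95% confidence interval -1.11 to -0.49, edgeR adjusted p = 0.00266), the largest fall among the members called. Both calls were kept under all 15 alternatives, with adjusted p up to 0.00766 for Slc7a5 and 0.0196 for Slc7a11.

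The remaining light chains were not called. Slc7a6, y+LAT2, exchanges cationic for neutral amino acids and had 1813, 1874 and 1806 normalized counts in control and 1903, 1909 and 2034 in D-gal. All D-gal libraries were higher, yet the log2 fold change of 0.09 did not pass the test (edgeR adjusted p = 0.128; exact permutation test, two-sided, p = 0.1). With limma on FPKM values it did (adjusted p = 0.046 with a pseudocount of 1). Slc7a7, y+LAT1, had 9.64 to 17.2 normalized counts per library and a log2 fold change of -0.38 with a 95% confidence interval of -1.12 to 0.37. Its exons overlap those of Oxa1l on the other strand, which had 748 to 1245 counts, and the strand setting of the counting is not given in the sources used here. The light chains Slc7a8 and Slc7a10 had at most 5 counts and 0 counts. A count of 0 for Slc7a10 allows up to 3 counts, or 0.144 to 0.218 per 1000000 counts, in a library, for counting error only.

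The make-up of the light chain pool shifted with these values. Per length, Slc7a5 made up 50.7%, 51.0% and 52.1% of the light chains in control 1 to 3 and 45.9%, 42.8% and 41.8% in D-gal 1 to 3. Slc7a6 went the other way, at 47.1% ± 0.78 (SD, n = 3) in control and 55.2% ± 2.18 in D-gal, and neither share overlapped between groups. Both genes together made up nearly all of the pool, so a fall in the Slc7a5 share forces a rise in the Slc7a6 share. The Slc7a6 share is therefore not a separate result, and Slc7a6 itself was not called. Summed light chains over Slc3a2, per length, were 0.909 ± 0.028 in control and 0.899 ± 0.031 in D-gal, which overlapped. Shares of this kind depend on the length used for each gene. With the lengths behind the authors' FPKM, Slc7a6 was above Slc7a5 in every library (28.4 to 29.6 against 21.4 to 22.5 FPKM in control, and 30.6 to 32.9 against 16.6 to 18.7 in D-gal), whereas with merged exons Slc7a5 was the higher in control.

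No cationic carrier of the CAT group was called among 3 tested, too few to read against the 34.8% of all genes tested that were called. Slc7a1, CAT1, the broadly expressed arginine carrier, had 2412, 2481 and 2444 normalized counts in control and 2623, 2447 and 2459 in D-gal. These overlapped, and the log2 fold change of 0.04 had a 95% confidence interval of -0.05 to 0.13, the narrowest among the members not called. Slc7a2, CAT2, an arginine carrier linked to inflammatory cells, had 781, 665 and 384 in control and 389, 383 and 407 in D-gal. Control 3 lay among the D-gal libraries while control 1 and 2 were well above, and the log2 fold change of -0.64 missed the threshold (SE 0.224, edgeR adjusted p = 0.0591). Without control 3 it was -0.88 and passed (adjusted p = 0.000657), and with no filter on low counts it passed at -0.65 (0.0265). Without control 1 it was -0.42 and further from the threshold (adjusted p = 0.177). Slc7a3, CAT3, had 21.7 to 41.5 normalized counts and a log2 fold change of 0.26 (95% confidence interval -0.40 to 0.93), and Slc7a4 had at most 8 counts. Of the 3 CAT transcripts per length, Slc7a1 was 69.6%, 72.6% and 81.2% in control and 80.8% to 80.9% in D-gal, with control 3 again apart from the other control libraries.

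In the SLC36 family, Slc36a4, PAT4, a high-affinity carrier for proline and tryptophan, had 930, 863 and 873 normalized counts in control and 1018, 973 and 991 in D-gal. All D-gal libraries were higher by a small margin, and Slc36a4 rose by a log2 fold change of 0.16 (SE 0.051, edgeR adjusted p = 0.0408). The call was lost with DESeq2 (adjusted p = 0.12), with no filter on low counts (0.0875), and on leaving out any library other than control 1 (0.0668 to 0.116). Slc36a1, PAT1, a proton-coupled exporter on lysosomes, varied more within groups than any other member with a mean of at least 100 normalized counts. Its values were 708, 570 and 311 in control and 227, 699 and 645 in D-gal. The highest and the lowest library differed 3.08-fold within D-gal, and the log2 fold change of -0.02 had a 95% confidence interval of -0.98 to 0.93, so that a change up to about the size of that in Slc1a3 was not detectable at this spread. Leaving out control 3 gave -0.29 and leaving out D-gal 1 gave 0.34, and neither was called.

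**Figure D3:**
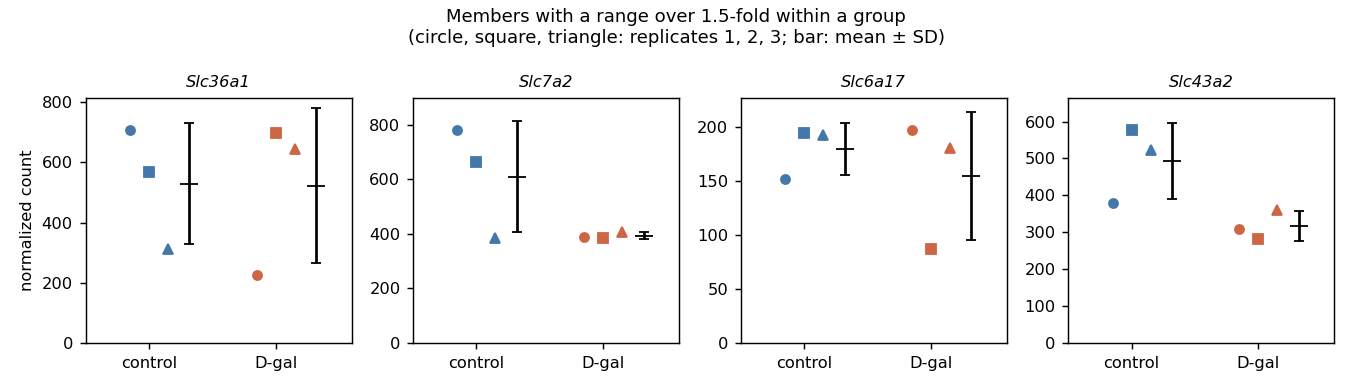
Normalized counts (linear axis from 0) by library for the 4 members whose highest library exceeded the lowest of the same group by more than 1.5-fold, with mean ± SD. Control 3 and D-gal 1 are low for Slc36a1, control 3 for Slc7a2, D-gal 2 for Slc6a17 and control 1 for Slc43a2.

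A within-group range above 1.5-fold was found for 4 of the 22 members with a mean of at least 100 normalized counts, namely Slc36a1 (3.08), Slc6a17 (2.26), Slc7a2 (2.03) and Slc43a2 (1.52). Over all genes with such a mean it was 680 of 10418 (6.53%). The library that stood apart was not the same in all 4 genes, although control 3 was low for both Slc36a1 and Slc7a2. Slc6a17, NTT4, a vesicular carrier of neutral amino acids known from neurons, had 153, 195 and 193 in control and 197, 87.4 and 181 in D-gal. D-gal 2 alone was low, and the log2 fold change was -0.22 with all libraries and 0.07 without D-gal 2, neither of them called.

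Of the 6 SLC38 members tested, 1 was called, too few to read against the 34.8% of all genes tested that were called. The more abundant Slc38a2 is outside the set and is given with the related genes. Slc38a10, a widely expressed member of unsettled transport role, had 3069, 3414 and 3337 normalized counts in control and 2993, 2877 and 2917 in D-gal. Control 1 was close to D-gal 1 but above it, and Slc38a10 fell by 0.16 on the log2 scale (SE 0.046, edgeR adjusted p = 0.0289). The call was lost with limma on FPKM values (adjusted p = 0.0945 with a pseudocount of 1) and without control 2, control 3, D-gal 2 or D-gal 3 (0.0732 to 0.093). An overlapping transcript on the other strand, Gm11769, had 6 to 25 counts per library. Slc38a4, SNAT4, carries neutral amino acids in liver and placenta, and its 275, 267 and 296 in control lay below the 327, 300 and 314 in D-gal without a call (log2 fold change 0.17, adjusted p = 0.142; exact permutation test, two-sided, p = 0.1). Slc38a1, SNAT1, a glutamine carrier, was not called at -0.05, nor were Slc38a6 at 0.12, the lysosomal glutamine carrier Slc38a7 at 0.05 and the lysosomal arginine sensor Slc38a9 at 0.05. Of the Slc38a6 exon sequence, 40.7% of 31-base words also occur in another gene, so its count is uncertain. Slc38a3, SNAT3, a liver and kidney glutamine carrier, had 0 to 6 counts.

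Slc43a2, LAT4, a facilitator for branched-chain amino acids and phenylalanine, had 379, 577 and 524 normalized counts in control and 308, 283 and 360 in D-gal. Control 1 was only just above D-gal 3, and Slc43a2 fell by 0.64 on the log2 scale (SE 0.161, 95% confidence interval -1.01 to -0.27, edgeR adjusted p = 0.0172). The call was lost without control 2, control 3, D-gal 1 or D-gal 2 (adjusted p = 0.0522 to 0.0611) and kept with DESeq2 (0.000289). On its exons, 9.18% of bases are shared with an annotated transcript on the other strand, Gm45606, which was not in the table. Slc43a3, described as a nucleobase carrier, had 665, 665 and 639 in control and 619, 582 and 602 in D-gal. Its groups did not overlap, but the log2 fold change of -0.13 did not pass (edgeR adjusted p = 0.111). Slc43a1, LAT3, had 27.3 to 44.6 normalized counts per library and was not called at 0.20 (95% confidence interval -0.29 to 0.69).

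Of the other families, Slc6a9, the glycine carrier GlyT1, had 355, 431 and 323 normalized counts in control and 414, 408 and 401 in D-gal. Control 2 was the highest of all 6 libraries, and the log2 fold change of 0.14 was not called (adjusted p = 0.356). Its exons overlap genes on the other strand over 30.2% of their length, among them B4galt2 with 350 to 569 counts. Slc16a10, TAT1, a facilitator for aromatic amino acids, had a log2 fold change of 0.01 (95% confidence interval -0.31 to 0.32) with overlapping groups. Slc6a15, B0AT2, a branched-chain carrier of neurons, had 0 to 2 counts.

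Grouped by substrate, carriers of large neutral amino acids were the group with more than 1 call in the same direction. Of its 3 tested members, 2 fell (Slc7a5 and Slc43a2) and Slc43a1 was not called, too few to read against the 17.8% of all genes tested that fell. Their summed level per length was 27.8, 30.2 and 30.0 in control and 23.8, 21.2 and 22.1 in D-gal. All D-gal libraries lay below all control libraries for that sum, most of which is Slc7a5. The anionic carriers of the set, without Slc1a6, summed to 8.60, 9.33 and 9.34 in control and 15.4, 16.7 and 16.4 in D-gal, a difference carried by Slc1a3, while Slc7a11 in the same group fell. Cationic carriers had no call among 5 tested, and their sum was 41.2 ± 1.56 (SD, n = 3) in control and 41.6 ± 0.83 in D-gal. The light chain Slc7a6 made up most of it, at 23.9 in control and 25.4 in D-gal. The CAT group, with Slc7a4 included, summed to 17.1 ± 1.30 in control and 16.1 ± 0.63 in D-gal, which overlapped. Small neutral carriers had 1 rise (Slc1a4) and 1 fall (Slc1a5) among 7 tested, and their sum was 46.8 ± 3.10 in control and 46.3 ± 2.496 in D-gal. The small neutral sum leaves out Slc38a2, a more abundant carrier outside the set that fell. Groups this small hold too few calls to read against the 34.8% of all genes tested that were called. These sums were not tested, and the members were grouped with earlier results known.

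Levels, given as counts per kilobase of merged exons per 1000000 counts, spanned more than 2 orders of magnitude. In control the order began with Slc3a2 at 55.8 ± 1.76 (SD, n = 3), Slc38a10 at 30.4 ± 1.68, Slc7a5 at 26.0 ± 0.77, Slc7a6 at 23.9 ± 0.49, Slc1a5 at 19.2 ± 1.12 and Slc7a1 at 12.6 ± 0.18. The next 4, Slc1a4 (8.78 ± 0.63), Slc43a3 (8.76 ± 0.20), Slc1a3 (8.32 ± 0.51) and Slc36a4 (8.10 ± 0.33), each lay within the spread of the next of these 4 in the order. In D-gal, Slc1a3 stood at rank 6 instead of 9, at 15.6 ± 0.65, and Slc1a5 at 16.0 ± 0.29 lay within the spread of Slc1a3. Slc7a6 (25.4 ± 0.96) stood above Slc7a5 (20.03 ± 1.36) in D-gal, and Slc38a10 remained second at 27.2 ± 0.55. The length behind the authors' FPKM was 0.816 times the merged exon length for Slc7a6 but 1.88 times for Slc3a2 and 2.01 times for Slc38a10. This order therefore depends on the gene model. Within a gene the length cancels from the change, but reads were not recounted with another gene model. On FPKM, Slc3a2 (29.3 in control, 27.5 in D-gal) and Slc7a6 (28.9 and 31.5) were close together at the top.

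**Figure D4:**
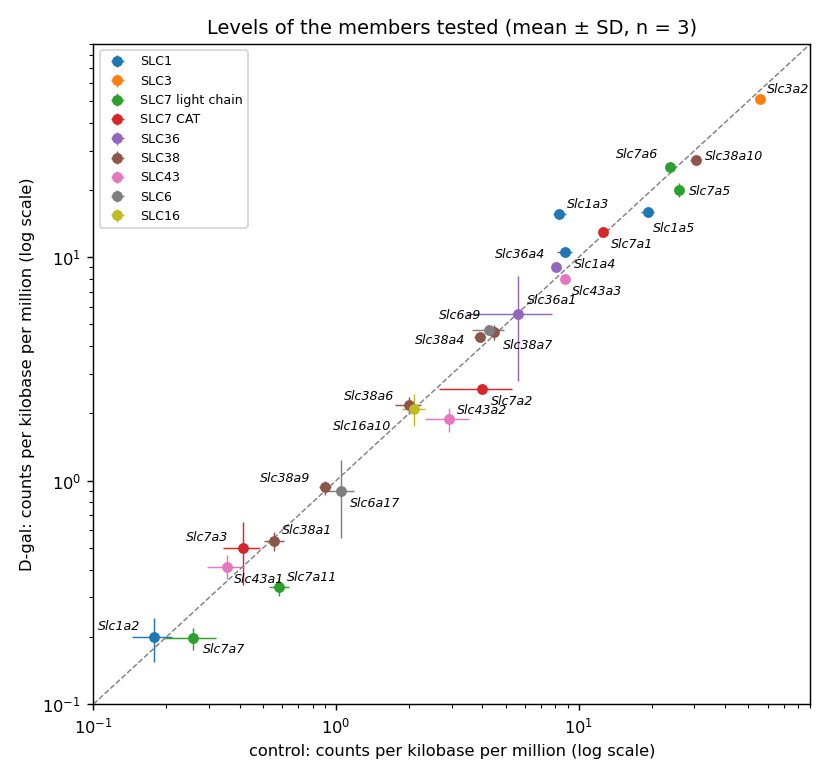
Level of each of the 26 tested members in control (horizontal) and D-gal (vertical), as counts per kilobase of merged exons per 1000000 counts on log axes, mean ± SD over 3 libraries, coloured by family. Slc1a3 lies farthest above the dashed line of equal level, and Slc7a11, Slc43a2 and Slc7a2 lie below it.

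Of the members that lie near each other in the genome, none was called, so nothing about shared calls can be read from them. By the deposited coordinates, Slc43a1 and Slc43a3 lie 72984 bases apart on chromosome 2, and Slc38a1 and Slc38a4 lie 351909 apart on chromosome 15. Slc7a7 and Slc7a8 lie 304435 apart on chromosome 14, and Slc7a8 was not tested.

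Genes that respond to amino acid supply were read beside the carriers, from lists written from general knowledge. Of 25 genes of the GCN2-ATF4 response tested, 5 rose and 8 fell (52.0% called, against 34.8% of all genes tested). The median log2 fold change of the list was -0.06. The 3 with the smallest p were Stc2, a secreted glycoprotein (1.26, SE 0.080, adjusted p = 2.45e-05), Cebpb, a transcription factor that partners ATF4 (-0.50, SE 0.053, adjusted p = 0.000264), and Nupr1, a stress-induced chromatin protein (0.96, SE 0.111, adjusted p = 0.000425). Of the Cebpb exon bases, 20.7% overlap Tmem189 on the other strand. Chosen after their values were seen, the ATF4 targets Ddit3 (-0.57) and Trib3 (-0.84) fell and Ddit4 (0.37) rose, so the list did not move one way. Named in the same way, Atf4 (0.08), Asns (-0.08), Chac1 (0.02), Psat1 (0.06), Phgdh (-0.10) and Sesn2 (0.09) were not called. Among 32 genes that signal amino acids to mTORC1, the growth kinase complex, 4 rose and 4 fell (25.0% called). Sesn1, a leucine-binding sestrin family member, rose by a log2 fold change of 1.12 (SE 0.0999, adjusted p = 0.000126), Gatsl2, or CASTOR2, a relative of the arginine sensor CASTOR1, rose by 0.22, and the folliculin partner Fnip1 fell by 0.20.

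Aminoacyl-tRNA synthetases, which load amino acids onto tRNA, had 4 rises and 1 fall among 20 tested (25.0% called, against 34.8% of all genes tested). Vars, for valine, fell by 0.25 on the log2 scale, and Iars (0.25), Dars (0.24), Farsa (0.20) and Mars (0.20) rose. Of 15 genes of branched-chain amino acid breakdown, 5 rose and 1 fell (40.0% called). The mitochondrial aminotransferase Bcat2, the first step, fell by 0.38 (SE 0.083, adjusted p = 0.00939), with 15.9% of its exon bases overlapped on the other strand, while Ppm1k, the phosphatase that activates the next step, rose by 0.76 (SE 0.096, adjusted p = 0.000685) and the dehydrogenase Acadsb rose by 0.24. Of 16 genes of glutamine, glutamate and glutathione metabolism, 4 rose and 3 fell (43.8% called). Those with the smallest p were the transsulfuration enzymes Cbs (1.09, SE 0.164, adjusted p = 0.00159) and Cth (0.65, SE 0.111, adjusted p = 0.00291), which make cysteine from homocysteine, and the glutathione hydrolase Ggt5 (1.02, SE 0.225, adjusted p = 0.00945), all of them higher. The rises in Cbs and Cth stood beside the fall in the cystine carrier Slc7a11. Normalized counts of Cbs were 53.2, 59.6 and 68.7 in control and 152, 117 and 117 in D-gal, and those of Cth 88.0, 99.5 and 100 in control and 156, 144 and 152 in D-gal, without overlap for either. Ggt5 was scarcer, at 17.4, 20.4 and 16.2 in control and 33.7, 34.9 and 42.2 in D-gal.

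Of 13 genes of lysosomal carriers, other lysosomal membrane proteins and the proton pump, 1 rose, the cysteine importer component Mfsd12 (0.42). The pump subunits Atp6v0c (-0.36) and Atp6v0d1 (-0.19) were the 2 that fell. These calls were 23.1% of the list. Of the Mfsd12 exon bases, 29.8% overlap other genes on the other strand. Of 28 further amino acid carriers outside the set, 10 were tested, and 4 of them were called (40.0%). Slc1a6, EAAT4, a glutamate carrier of Purkinje cells, rose by a log2 fold change of 1.23 (SE 0.128, adjusted p = 0.000262), from 67.1, 66.1 and 58.6 normalized counts in control to 139, 165 and 146 in D-gal. Slc38a2, SNAT2, a sodium-coupled carrier induced when amino acids run short, fell by 0.27 on the log2 scale (SE 0.029, adjusted p = 0.000328), from 16130, 16906 and 16851 to 13689, 13704 and 14087. Both had wide gaps relative to the spread within groups, Slc1a6 in the direction of Slc1a3 and Slc38a2 in that of Slc1a5 and Slc7a5. The taurine carrier Slc6a6 (0.13) and the mitochondrial ornithine carrier Slc25a15 (0.30) rose. Of the 7 lists, called shares ran from 23.1% to 52.0%, against the 34.8% of all genes tested.

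**Figure D5:**
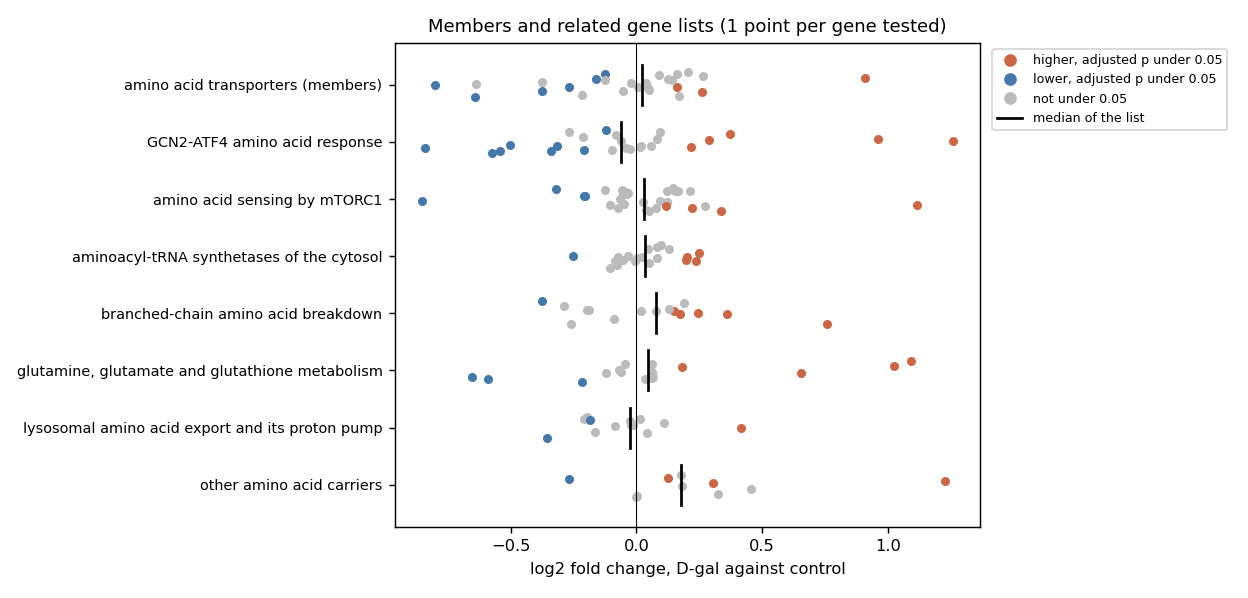
Log2 fold change of D-gal against control for each gene tested among the members and 7 related lists, 1 point per gene with vertical jitter. Orange and blue points are genes higher and lower with adjusted p under 0.05, grey points are not under it, and black bars are list medians, which lie between -0.06 and 0.18.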

How the data were processed

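RNA-seq libraries of total RNA from NOR-10 cells, 3 from PBS control and 3 from D-gal treatment, were sequenced by the authors on an Illumina platform. The labels name a universal RNA-seq kit and the study's methods a small RNA kit, and whether polyadenylated RNA was selected is not given in the sources used here. Reads were checked with FastQC and trimmed with Trimmomatic by the study's methods, and the submitters' processing notes name HISAT2 2.0.4. The counting tool, its strand setting, the genome build and the annotation are not given in the sources used here. The authors deposited 1 table of 34745 genes with raw read counts per gene and library, and FPKM values (counts per kilobase of a gene length and per 1000000) made by the authors, per the file headers.

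Counts were tested with edgeR 4.0.16 in R 4.3.3 (filterByExpr, TMM, quasi-likelihood test, Benjamini-Hochberg over 13407 genes). A gene was called, and said to rise or fall, at adjusted p under 0.05. Normalized counts are counts scaled to the mean effective library, and SE was taken as the size of the log2 fold change over the root of the F statistic. Totals of 13759108 to 20830349 counts limit the 7 untested members, which had at most 14 counts in a library. The confidence intervals come from the edgeR fit and include the spread between libraries, while the limit given for a count of 0 covers counting error only. Levels between genes used merged exons of GENCODE M21, which held 34344 of the genes. Promoter stretches and motifs came from RefSeq. Exact permutation tests were two-sided over the 10 distinct splits of 3 against 3.

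All members were accounted for, called ones were described by library, and from each related list the 3 genes with the smallest p were named, or all called genes where 5 or fewer were called. Members, lists and tests were chosen with earlier results of these data known. Samtor from the mTORC1 list was not matched to the table. Same-numbered control and D-gal libraries did not deviate together (r = -0.0114, -0.00269 and 0.0277), so no pairing was used. No pair of libraries agreed within sampling noise. Alternatives were DESeq2 1.42.0, limma 3.58.1 on log2 FPKM with pseudocounts of 1 and 0.1, other size factors, filters, thinned counts, a replicate block and leaving out each library.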

Additional observations from a re-analysis of the deposited data

How the results depend on the processing

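Of 135 alternative values of the 9 called members, all 135 kept the direction, 100 were still called and 35 were not. Slc1a3, Slc1a5, Slc7a5 and Slc7a11 were called under all 15 alternatives. Leaving out 1 library at a time gave 5 to 8 called members (5 without control 2, D-gal 1 or D-gal 2), with 1 to 2 higher and 3 to 6 lower, where 9, 3 and 6 were called with all libraries. Control 3 and D-gal 1 were also left out together, an alternative chosen after seeing the data, which gave 5 called, 1 of them higher. At adjusted p under 0.01, 4 members were called, 1 higher and 3 lower. With a change of 1 or more on the log2 scale also required, 0 were called, 0 higher and 0 lower. With the replicate number as a replicate block, 6 members were called, 2 higher and 4 lower, and Slc3a2, Slc36a4 and Slc38a10 lost the call. Same-numbered libraries share only a number.

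Among the related lists, leaving out 1 library gave 4 to 7 called genes in place of 8 for mTORC1 sensing, 3 to 5 in place of 5 for the synthetases and 4 to 5 in place of 7 for glutamine, glutamate and glutathione metabolism. The synthetases had 9 calls with limma on FPKM at either pseudocount, and glutamine, glutamate and glutathione metabolism had 4 with DESeq2. The causes were not tested.

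Members that were not called turned sign in 14 of 253 alternative values. With 1 library left out, log2 fold changes ran from -0.29 to 0.34 for Slc36a1, from -0.016 to 0.30 for Slc1a2, from -0.14 to 0.0066 for Slc38a1, from -0.020 to 0.08 for Slc38a7, from -0.0030 to 0.10 for Slc38a9, from -0.43 to 0.072 for Slc6a17 and from -0.12 to 0.12 for Slc16a10. Without control 3 and D-gal 1, Slc36a1 was 0.072 and Slc38a1 was -0.21. Slc1a2 was -0.0070 with thinned counts, and Slc16a10 was -0.0031 with no filter on low counts. Depth and 3 libraries per group limit the scarce members, and the median half-width of the 95% confidence interval of members not called was 0.28 on the log2 scale.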
